A study of Mus musculus with 8 samples.

Results

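The 10 genes described here encode parts of the T cell antigen receptor complex, the coreceptors and kinases that act with it, and a pair of nuclear proteins of developing T cells. They are Cd3d, Cd3e, Cd3g, Cd247, Cd4, Cd8a, Lck, Zap70, Satb1 and Rag1. The members were taken by gene symbol from the platform annotation of the array. No probe used here carried the symbol Lck, so 9 of the 10 genes had a probe, among 16593 genes in all, and 13 of the 25697 probes on the array belonged to them. Cd247 and Zap70 had 3 probes each and the other 7 genes had 1.

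RNA came from the whole lung of 8 mice of the strain NOD/shi, derived from the non-obese diabetic mouse, aged between 6 and 12 weeks. The 3 control mice were not ventilated and the 5 ventilated mice were, in a series on lung injury caused by the ventilator. RNA of each lung was hybridised to its own single-colour bead array. No genetic change or drug is named for either group, and the labels give neither ventilator settings and duration nor anaesthesia and sex. Nothing in the labels describes perfusion of the lungs or removal of the thymus and lymph nodes, and the markers below give what can be read of such tissue. In whole lung RNA, a change in the number of T cells and a change in transcript per T cell cannot be told apart.

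The T cell antigen receptor recognises peptides with a pair of variable chains that have almost no cytoplasmic part. Signals pass instead through the CD3 delta, epsilon and gamma chains and the zeta chain encoded by Cd247, whose cytoplasmic motifs are phosphorylated by the kinase Lck and then bind the kinase Zap70. Cd4 and Cd8a encode coreceptors that bind MHC molecules and carry Lck to the receptor. Rag1 encodes part of the recombinase that assembles the variable chains in immature thymocytes, and Satb1 a chromatin organiser that is abundant in thymocytes but is also made in other cell types. The thymus lies next to the lungs in the chest, and Rag1 with Rag2, Dntt (terminal transferase) and Ptcra (the pre-T cell receptor alpha chain) marks its immature cells.

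The genes of the 3 CD3 chains lie side by side on mouse chromosome 9. Their promoters are shown because the probe signals of these neighbours shifted by different amounts between the groups. That difference could be tested only with undetected readings included. The sequences are those of RefSeq for build GRCm38.p6, from 250 bases before to 50 bases after the annotated start, and capitals mark each CANNTG, the E box bound by basic helix-loop-helix factors. The windows are chr9:44980382-44980681 on the minus strand for Cd3g, chr9:44981536-44981835 on the plus strand for Cd3d and chr9:45009562-45009861 on the minus strand for Cd3e.
Cd3g: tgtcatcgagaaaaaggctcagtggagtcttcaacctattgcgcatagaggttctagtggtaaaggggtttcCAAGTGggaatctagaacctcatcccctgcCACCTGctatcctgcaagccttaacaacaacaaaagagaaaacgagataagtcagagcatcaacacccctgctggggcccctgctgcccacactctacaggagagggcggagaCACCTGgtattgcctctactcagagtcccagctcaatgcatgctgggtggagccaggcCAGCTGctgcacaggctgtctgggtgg
Cd3d: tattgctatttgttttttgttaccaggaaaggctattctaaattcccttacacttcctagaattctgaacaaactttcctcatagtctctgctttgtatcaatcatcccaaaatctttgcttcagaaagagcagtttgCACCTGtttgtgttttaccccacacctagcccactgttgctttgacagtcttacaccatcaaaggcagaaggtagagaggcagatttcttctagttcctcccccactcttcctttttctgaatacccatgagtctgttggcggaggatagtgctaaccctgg
Cd3e: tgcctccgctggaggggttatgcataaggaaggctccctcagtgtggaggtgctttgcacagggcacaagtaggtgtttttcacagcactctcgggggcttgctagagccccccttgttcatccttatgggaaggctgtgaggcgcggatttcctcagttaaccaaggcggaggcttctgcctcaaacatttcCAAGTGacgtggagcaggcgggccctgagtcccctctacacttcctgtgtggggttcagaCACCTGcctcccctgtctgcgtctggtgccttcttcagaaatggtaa
The starts of Cd3g and Cd3d are 1355 bases apart and point away from each other. Counted on both strands, CANNTG occurs 4 times in the window of Cd3g, 1 time in that of Cd3d and 2 times in that of Cd3e, and 72.1% of 27025 promoters of the same length hold at least 1. The letters GGAA, the core bound by ETS factors, occur 2, 6 and 5 times in Cd3g, Cd3d and Cd3e, and 95.9% of the promoters hold them. The letters TATAAA are in none of the 3 windows and in 14.2% of all promoters. These matches describe the letters only.

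Brightness varied between arrays of the same group, and most T cell probes were dim. Mean probe intensity was 54.3 on control 2 and 332.4 and 253 on the other controls, and it ran from 87.4 (ventilated 4) to 321 (ventilated 5) after ventilation. A detection p-value is given per probe and array, and a probe was taken as detected under 0.05. Control 2 had 8080 detected probes, against 9765 to 14310 on the other arrays. Lung identity was clear, since all 10 lung markers with a probe were detected on every array. Control 1 stood apart by skeletal muscle transcripts, with a summed normalized level of 4980 over 9 genes, against 67.1 to 116 on the other 7 arrays. Heart muscle genes summed to 3880 to 16100, highest on ventilated 4 and control 1.

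Of the 13 member probes, 7 were detected on at least 3 arrays and could be tested, and these belonged to 6 genes: Cd3d, Cd3e, Cd3g, Cd247, Zap70 and Satb1. The single probes of Cd4, Cd8a and Rag1 were not detected on any of the 8 arrays. Satb1 was the only member detected on all arrays. Cd3d, Cd3e and Zap70 were detected on 7 arrays and missed on control 2, the dimmest array. Cd3g was detected on 5, with detection p-values of 0.327 on control 2, 0.109 on ventilated 1 and 0.0551 on ventilated 4. The chart of detection p-values by array shows this pattern.

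**Figure D1:**
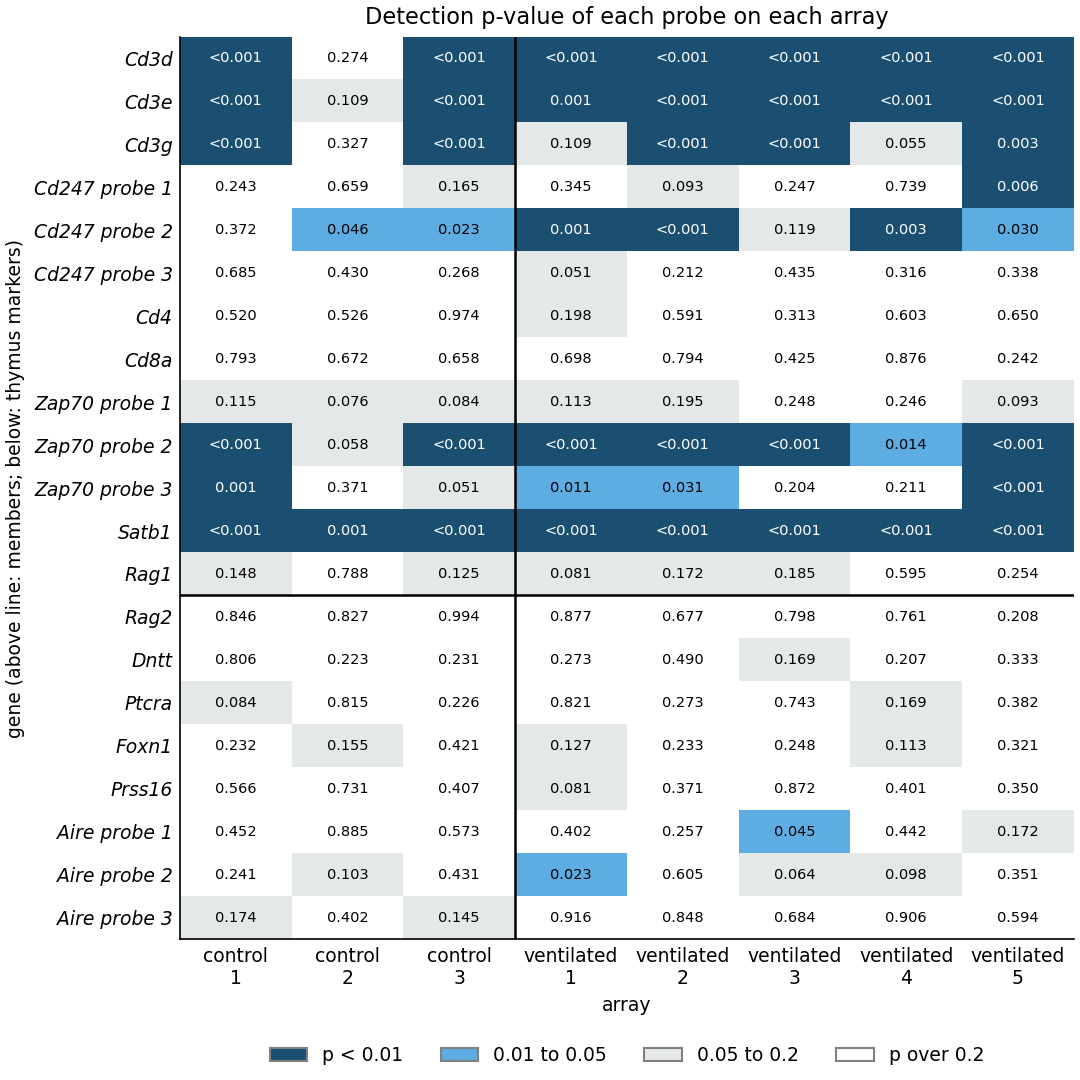
Detection p-value of every member probe (above the horizontal line) and of thymus marker probes (below it) on each of the 8 arrays, with controls left of the vertical line. Dark cells have p under 0.01 and light blue cells p from 0.01 to 0.05; Satb1 is dark on all 8 arrays, and the rows of Cd4, Cd8a, Rag1, Rag2, Dntt and Ptcra hold no detected cell.

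Levels are given as normalized log2 intensities after background correction, quantile normalization and an added offset of 16, which compresses differences of dim probes. Ventilated and control lungs were compared with limma over 10200 features, with Benjamini-Hochberg adjustment over all of them. Of the 6 measured members 1 rose, Cd3d, and none fell; over all features 2.00% passed the adjusted threshold of 0.05, 1.26% upward and 0.735% downward. Before adjustment 3 of the 6 genes had p under 0.05, against 16.2% of all features. Cd3d, Cd3e and Satb1 had all 5 ventilated values above all 3 control values, which held for 6.71% of all features in this direction; no member lay wholly below the controls, against 6.45% of all features. Over single probes 1 of 7 passed, that of Cd3d, against 1.62% of all 13374 kept probes. The median log2 difference of the 6 genes was 0.57, with 5 of 6 above 0, and that of all features was 0.01. These 6 are the members that passed the detection filter and not all 10.

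Cd3d, which encodes the CD3 delta chain (probe ILMN_2697415), was the member that rose. Its log2 level was 5.41, 4.57 and 5.55 in controls 1 to 3 and 6.89, 6.40, 6.81, 7.18 and 6.51 in ventilated lungs 1 to 5. Every ventilated lung lay above every control, with the lowest value on control 2, where the probe was not detected. The mean went from 5.18 ± 0.53 (SD, n = 3) to 6.76 ± 0.31 (SD, n = 5), a log2 fold change of 1.58 ± 0.28 (SE; limma adjusted p = 0.0243) or 3.00-fold. Among the 10200 features it held rank 79 by size of rise and rank 82 by p. In unprocessed intensity the probe read 115, 40.7 and 91.6 on the controls and 87.1, 123, 89.5, 73.5 and 192 on the ventilated arrays, so that the groups overlapped before the differences in array brightness were removed. The size rested on the processing: the log2 fold change was 0.98 within the 4 brighter arrays (controls 1 and 3, ventilated 2 and 5; adjusted p = 0.141), 0.83 with a common median in place of quantile normalization and 0.52 in the deposited scaled values, none of which passed. Without control 2 the log2 fold change was 1.28 (adjusted p = 0.0405). Leaving out control 1 or ventilated 1, 3, 4 or 5 ended the call at 1.48 to 1.70, with adjusted p from 0.0502 to 0.071.

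**Figure D2:**
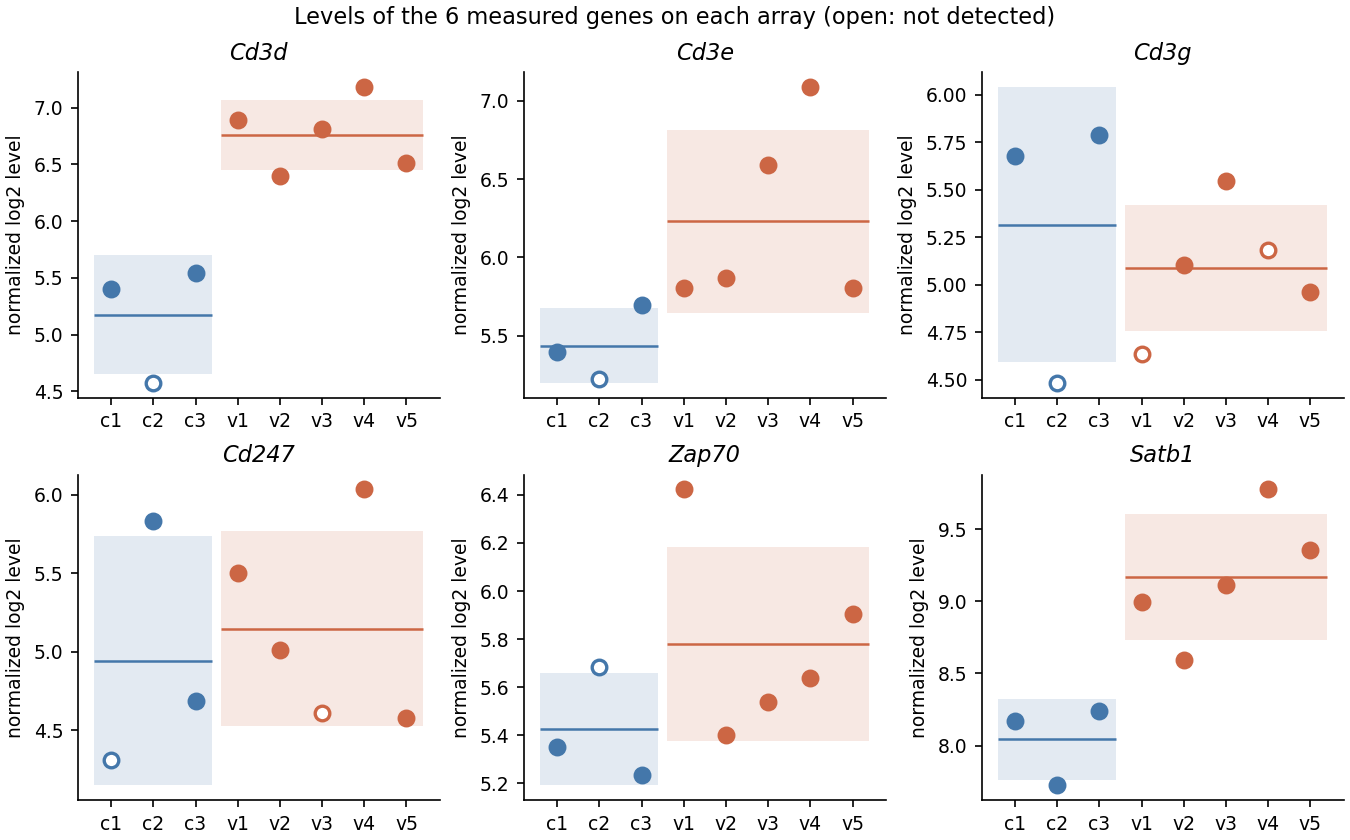
Normalized log2 level of the 6 measured genes on each array, controls c1 to c3 in blue and ventilated lungs v1 to v5 in red, with the group mean (line) and SD (shading); open circles were not detected. The ventilated values of Cd3d lie between 6.40 and 7.18, all above the highest control at 5.55, whereas those of Cd3g overlap the controls.

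Cd3e encodes the CD3 epsilon chain, which pairs with both delta and gamma. Its level was 5.39, 5.22 and 5.69 in the controls and 5.80, 5.87, 6.59, 7.09 and 5.80 after ventilation. The groups did not overlap, but the lowest ventilated values, 5.80 in lungs 1 and 5, lay close to the 5.69 of control 3, and ventilated 3 and 4 stood well above the other 3. The log2 fold change of 0.79 ± 0.33 did not pass (adjusted p = 0.268; 95% interval 0.07 to 1.52). It was 0.58 without ventilated 4 and 0.29 within the 4 brighter arrays.

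Cd3g encodes the CD3 gamma chain. Its level was 5.68, 4.48 and 5.79 in the controls and 4.64, 5.11, 5.55, 5.19 and 4.96 after ventilation. Controls 1 and 3 held the highest values, above all 5 ventilated lungs, and control 2 the lowest, where the probe was not detected. The log2 difference was −0.23 ± 0.33 (adjusted p = 0.785; 95% interval −0.96 to 0.50), and −0.65 without control 2 (adjusted p = 0.247). It was 0.01 without control 3.

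Cd247 encodes the zeta chain, the longest signalling tail of the complex. Its probe ILMN_1256639 gave 4.31, 5.83 and 4.69 in the controls and 5.50, 5.01, 4.61, 6.03 and 4.58 after ventilation. The groups overlapped fully, and the highest values came from control 2 and ventilated 4, the dimmest array of each group. The log2 difference was 0.20 ± 0.42 (adjusted p = 0.858; 95% interval −0.72 to 1.13). It stood at 0.65 without control 2, −0.11 without control 1 and −0.02 without ventilated 4. Another Cd247 probe was detected on ventilated 5 alone and the last on no array, so neither was tested.

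**Figure D3:**
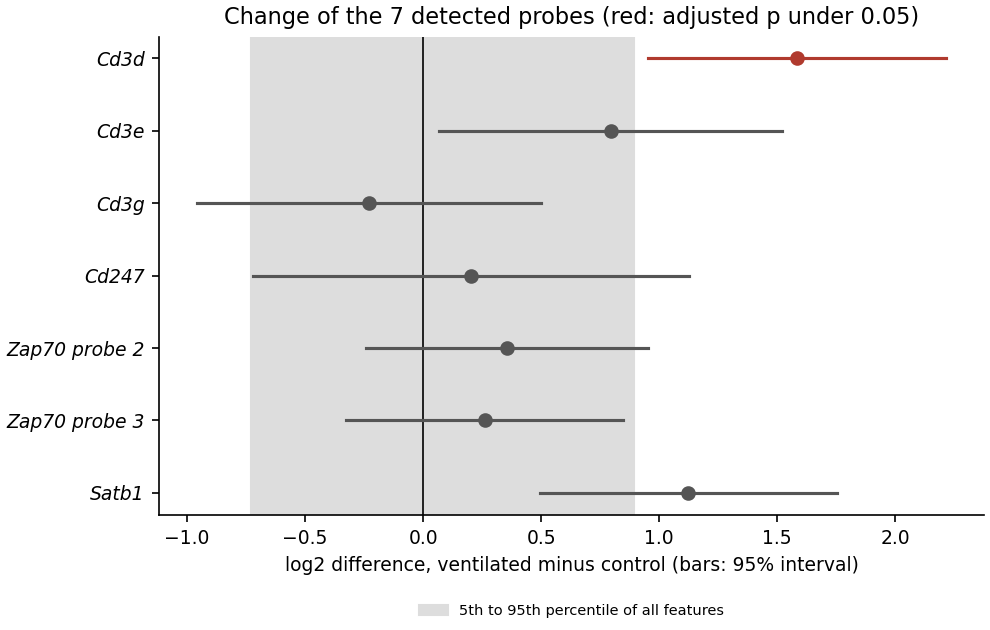
Log2 difference between ventilated and control lungs for the 7 member probes detected on at least 3 arrays, with 95% intervals; the grey band holds the values of all features from the 5th (−0.73) to the 95th percentile (0.89). Cd3d and Satb1 lie above the band, and the intervals of Cd3g, Cd247 and both Zap70 probes span 0.

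Over all arrays, undetected readings included, the probe signals of the CD3 chains shifted unequally between the groups. This was read from the difference between their log2 levels within each array. Each of the 3 pairs was compared between the groups by exact permutation over 56 splits of the arrays (two-sided, smallest possible p 0.0179), with adjustment over the 3 pairs. Cd3d minus Cd3g was −0.27, 0.09 and −0.24 in the controls and 2.25, 1.29, 1.27, 2.00 and 1.55 after ventilation. The groups lay far apart, with a shift of 1.81 in the log2 difference (means −0.14 ± 0.20, SD, n = 3, and 1.67 ± 0.44, SD, n = 5; exact permutation adjusted p = 0.0268). Cd3g minus Cd3e moved by −1.02, from −0.12 ± 0.54 to −1.14 ± 0.45 (exact permutation adjusted p = 0.0268), and control 2 at −0.74 lay just above the nearest ventilated value of −0.76. Cd3d minus Cd3e moved by 0.79, from −0.26 ± 0.34 to 0.53 ± 0.40 (exact permutation adjusted p = 0.0357), with ventilated 4 at 0.09 and control 1 at 0.01. These tests take every reading at its measured value, also where a chain was not above background. The 3 differences share the same readings and are not independent. The smallest possible p is reached only where the groups do not overlap, which held for 13.2% of all features in either direction. The share of other gene pairs that do so was not computed.

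None of the 3 chains was detected on control 2, and Cd3g was not detected on ventilated 1 and 4. On the 4 brighter arrays, where all 3 chains were detected, Cd3d minus Cd3g was −0.27 and −0.24 in controls 1 and 3 and 1.29 and 1.55 in ventilated 2 and 5. On the 5 arrays with all 3 chains detected (controls 1 and 3, ventilated 2, 3 and 5; chosen after seeing the data) the shifts were 1.63 for Cd3d minus Cd3g, −1.07 for Cd3g minus Cd3e and 0.56 for Cd3d minus Cd3e. The exact permutation adjusted p was 0.15, 0.15 and 0.2, and no p below 0.1 can be reached with 10 splits, so the unequal change was not testable on detected readings alone. Without control 1, 2 or 3 the shift of Cd3d minus Cd3g was 1.75, 1.93 and 1.76, with adjusted p = 0.0714 in each; 21 splits then give no p below 0.0476. Cd3g minus Cd3e also lost its call without any 1 control, at −0.82, −1.33 and −0.92 without control 1, 2 and 3. Both kept it without any 1 ventilated lung (exact permutation adjusted p = 0.0429). Cd3d minus Cd3e lost its call without any 1 of the 8 arrays, at 0.60 to 0.93 (exact permutation adjusted p 0.0571 to 0.143). Each chain was read by 1 probe, and the transcript region it matches is not given in the sources used here.

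**Figure D4:**
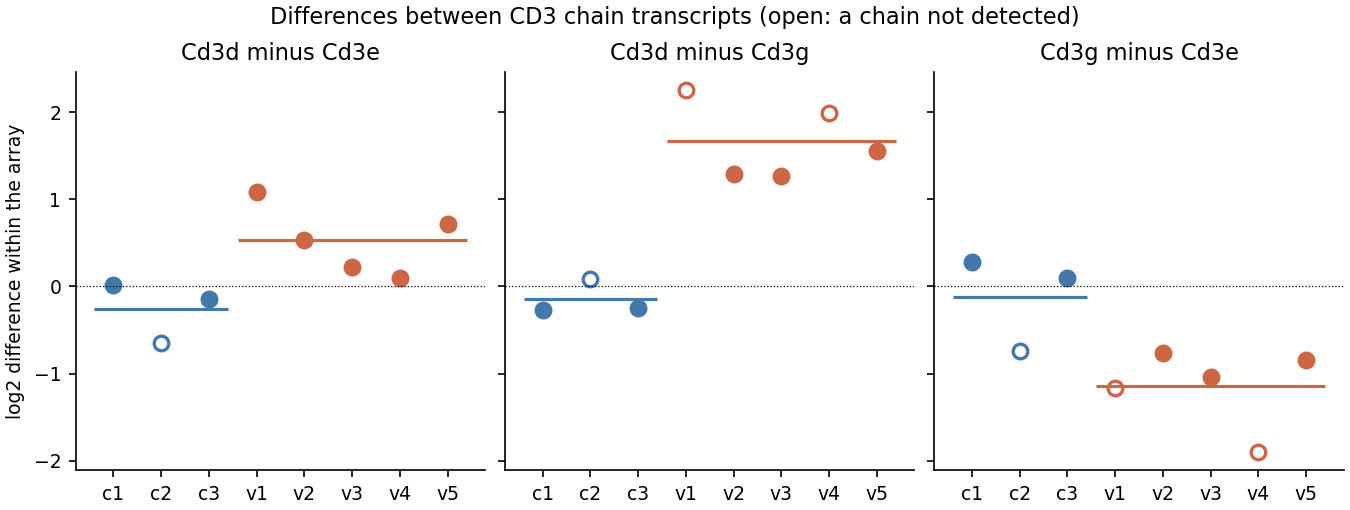
Difference in normalized log2 level between CD3 chain transcripts within each array, controls in blue and ventilated lungs in red, with group means as lines and open circles where at least 1 chain was not detected. Cd3d minus Cd3g is at most 0.09 in the controls and at least 1.27 in the ventilated lungs.

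Cd4 and Cd8a, the coreceptors of helper and cytotoxic T cells, stayed at background. The intensity of the Cd4 probe was 38.0 to 51.5, with detection p-values from 0.198 to 0.974. The Cd8a probe read 37.2 to 55.2, with detection p-values from 0.242 to 0.876. No change in either coreceptor was detectable with these probes, on arrays where Cd3e was detected in 7 of 8 lungs. Cd8b1, the partner chain of Cd8a, was detected on 4 of 8 arrays by at least 1 of its 2 probes.

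Zap70, the kinase that binds the phosphorylated receptor, was measured by 2 probes. The brighter, ILMN_2513870, gave 5.35, 5.69 and 5.24 in the controls and 6.42, 5.40, 5.54, 5.64 and 5.90 after ventilation. The groups overlapped, and the highest control value came from control 2, where the probe was not detected. Ventilated 1 was the highest, and the log2 difference was 0.36 ± 0.27 (adjusted p = 0.568; 95% interval −0.24 to 0.95), or 0.19 without that lung. The dimmer probe ILMN_3005740 gave 0.26 ± 0.27 in a fit of every kept probe (adjusted p = 0.708), with ventilated 1 and 5 again highest at 5.29 and 5.32. The third Zap70 probe was detected on no array. Relative to the control mean, the levels on ventilated 1 to 5 differed by 1.00, −0.02, 0.11, 0.21 and 0.48 for Zap70 and 1.71, 1.22, 1.64, 2.01 and 1.34 for Cd3d; this contrast of genes was not tested.

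Satb1 was the brightest member probe and the one that could be read on every array. Its level was 8.17, 7.72 and 8.24 in the controls and 8.999, 8.59, 9.12, 9.78 and 9.36 after ventilation. All 5 ventilated lungs lay above all 3 controls, ventilated 4 highest. The mean was 8.04 ± 0.28 (SD, n = 3) and 9.17 ± 0.44 (SD, n = 5), and the log2 difference of 1.12 ± 0.28 missed the threshold (adjusted p = 0.0775; 95% interval 0.50 to 1.75). It passed with 4 alternatives: without background correction (1.04, adjusted p = 0.0496), with detection required on all arrays (1.12, 0.046), with array weights (0.85, 0.0399) and with brightness as a covariate (1.13, 0.045). It was smaller and did not pass within the 4 brighter arrays (0.77, adjusted p = 0.287), in the deposited scaled values (0.80, 0.513) and with the common median (1.03, adjusted p of 1). Over the fits that left out 1 array it was 0.96 to 1.27 and did not pass.

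Rag1 was read at 58.0, 35.9 and 51.8 on controls 1 to 3 and at 49.95, 54.7, 49.0, 42.2 and 54.9 on ventilated 1 to 5. The detection p-values were 0.148, 0.788 and 0.125, and 0.0815, 0.172, 0.185, 0.595 and 0.254, so that no array, ventilated or control, gave a signal above background. The other defining markers of immature thymocytes were read in the same way: Rag2, Dntt and Ptcra were detected on 0 of 8 arrays, with lowest detection p-values of 0.208, 0.169 and 0.084. Over the 4 probes and 8 arrays, 0 of 32 readings passed, the lowest at 0.0815. The data therefore showed no defining thymocyte transcript on any array, control or ventilated, at the sensitivity of these probes.

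The wider thymocyte list, of which Cd4, Cd8a, Satb1 and Rag1 are members too, had 12 of 13 genes with a probe. Each control had 2 or 3 of the 12 detected, and each ventilated lung 2 to 4. The summed level was 336 to 390 in controls and 450 to 1060 after ventilation, and Satb1 made up most of it. Only Satb1, Bcl11b and Cd8b1 passed the detection filter. Of these 3, Satb1 and Bcl11b lay wholly above the controls, against 6.71% of all features. Bcl11b, a transcription factor of T lineage commitment that mature T cells also express, was at 1.08 ± 0.32 (adjusted p = 0.12), with its 5 ventilated values above the controls. Among thymic epithelial markers, Foxn1 and Prss16 were detected on 0 arrays and Aire on 2 (ventilated 1 and ventilated 3, by a different one of its 3 probes each, at detection p of 0.0226 and 0.0451). The epithelial list as a whole had 1 to 2 of 7 genes detected on the controls and 2 to 4 on the ventilated arrays, with a summed level of 80.8 to 151 and 65.2 to 106. Krt14, a keratin that other epithelia also make, was detected on all 8 arrays and had the smallest p of that list, at −0.53 ± 0.38 (adjusted p = 0.548). Ventilated 4, the highest array for Cd3d, Cd3e and Satb1, had none of Rag1, Rag2, Dntt and Ptcra detected, but it had the highest sum of the thymocyte list, 1060. It was also the highest array for Bcl11b (6.74), for the brighter Cd8b1 probe (5.94; detection p 0.00376) and for Tbata, a gene of the thymic epithelial list (5.76; detection p 0.00627). The other Cd8b1 probe was not detected on ventilated 4 (detection p 0.202) and was highest on control 2, where it was not detected either. The other Tbata probe was also highest on ventilated 4 but was detected on no array (detection p 0.0815 on ventilated 4). Tbata and Cd8b1 were singled out after their values were seen. Tbata was detected on ventilated 1, 2 and 4 and on 0 controls, with a log2 difference of 0.27 ± 0.34 (adjusted p = 0.755). The part of thymic tissue in the values of ventilated 4 was not tested.

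Genes that act beside or below the receptor showed no common direction. Of 36 listed signalling genes 32 had a probe and 20 were measured: 1 rose and none fell, with 10 of 20 above 0 and a median log2 difference of 0.07, against 0.01 for all features, of which 1.26% rose and 0.735% fell. The riser was Ptpn22, a phosphatase that restrains receptor signalling and is also made in other leukocytes, at 1.45 ± 0.28 (adjusted p = 0.031). Its level was 5.31, 4.51 and 4.79 in controls and 5.95, 6.06, 6.38, 6.26 and 6.93 after ventilation, and it was detected on 2 controls and all 5 ventilated arrays. Its call held without control 1 (1.67) and without ventilated 1 (1.54), and was lost without any 1 of the other 6 arrays, at 1.27 to 1.51. It was 0.88 with a common median and 0.53 in the deposited scaled values, where it did not pass. Among genes named after their values were seen, Vav1, an exchange factor below the receptor, lay wholly above the controls at 1.56 ± 0.39 and did not pass (adjusted p = 0.0727). The adaptor Nck1 (−1.20 ± 0.32, adjusted p = 0.0904), the diacylglycerol kinase Dgkz (−1.18 ± 0.32, 0.102) and Csk, a kinase that inhibits Lck (−0.65 ± 0.25, 0.239), lay wholly below the controls and did not pass either. Of the 20 measured signalling genes, 2 lay wholly above and 3 wholly below the controls, against 6.71% and 6.45% of all features. Of 14 T lineage transcription factors 7 were measured and none passed, with a median of −0.31 and 2 of 7 above 0. Of these 7 factors, 1 lay wholly above and 1 wholly below the controls. Bcl11b had the smallest p. Runx1, named after its value was seen, lay wholly below the controls at −0.95 ± 0.29 (adjusted p = 0.131), and Gata3 and Klf2 were at −0.99 ± 0.37 and −0.71 ± 0.29 (adjusted p = 0.227 and 0.262). The symbols listed for the variable and constant chains of the receptor itself matched 0 probes.

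**Figure D5:**
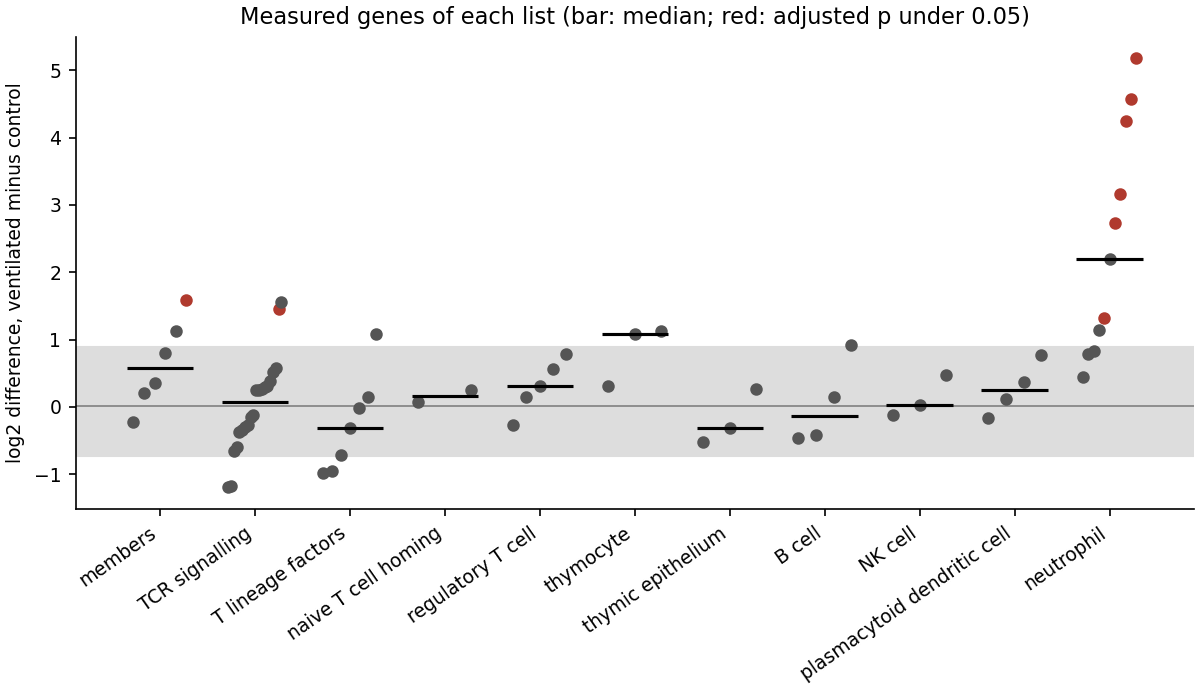
Log2 difference between ventilated and control lungs for each measured gene of 11 lists, with the list median as a bar and genes past the adjusted threshold in red; the grey band spans the 5th to 95th percentile of all features. The member list has 1 red point (Cd3d, 1.58), the signalling list 1 (Ptpn22, 1.45), and the neutrophil list lies highest, with a median of 2.20.

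Markers of other leukocytes moved to a different extent beside these values. Neutrophil genes had a summed level of 1480 to 1960 in controls and 8810 to 20500 after ventilation, with 6 of 11 measured genes past the threshold upward, against 1.26% of all features. Il1r2 and Camp, both among these 6, were detected on 0 controls, as were Ngp and Cxcr2, which were measured but not called. These genes therefore passed the detection filter only through the ventilated arrays. Ventilated 4, the highest array for Cd3d, Cd3e, Cd247 and Satb1, was also the dimmest ventilated array and the highest for heart muscle genes. The log2 fold change of Cd3d was 1.596 with brightness as a covariate (limma adjusted p = 0.013) and 1.584 with a brightness block (0.0283). It was 0.98 within the 4 brighter arrays (limma adjusted p = 0.141) and 1.48 without ventilated 4 (0.0549), and passed in neither. The part of heart muscle tissue in the rise of Cd3d was not tested. Of the B cell genes 9 had a probe, and their summed level was 70.9 to 147 in controls and 69.6 to 161 after ventilation. For NK and cytotoxic cells, which can express CD3 chains in the cell, 9 genes had a summed level of 206 to 271 and 236 to 522, highest on ventilated 4 (522) and ventilated 3 (393), the arrays with the highest Cd3e. Of these genes Prf1 was detected on 8 arrays and Klrd1 and Nkg7 on 6 each, whereas Ncr1, Klrb1c, Klrk1, Gzma, Gzmb and Il2rb were detected on 0. Prf1 made up most of the sum and was at 8.95 on ventilated 4, where only 1 of the 9 genes was detected. Klrd1 (4.77) and Nkg7 (4.78) were lowest on ventilated 4 among the ventilated arrays. The part of NK and cytotoxic cells in the level of Cd3e was not tested. None of the measured B or NK cell genes passed the threshold.

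As a description of likeness, deviations from the group mean were compared over the 8 arrays with the mean deviation of Cd3d, Cd3e and Cd3g. The named genes outside the members with the highest Pearson r were Itpk1 (0.99), Mamdc4 (0.98), Aldh5a1 (0.98), Nr6a1 (0.98) and Usp20 (0.97). Among the members that did not enter the mean, Satb1 had r = 0.70, Cd247 −0.22 and Zap70 −0.55. The mean deviation of the 3 chains was lowest on control 2 (−0.55), where none of them was detected. It was highest on ventilated 4 (0.46), where Cd3g was not detected. The order of genes by r is that of these 8 arrays alone, and the part of array brightness in it was not tested.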

How the data were processed

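Total RNA of 8 whole lungs was extracted with Trizol, cleaned on RNeasy columns with DNase and amplified to biotinylated cRNA for Illumina bead arrays, per the labels' protocols. No label or header names the scanner. The authors deposited linear probe intensities, called non-normalized in the table's name, with a detection p-value for each, per the file headers. Each detection column was paired with the intensity column before it, with which its rank correlation was the most negative on every array. A second deposited table holds the same intensities scaled to 1 mean per array and served as an alternative.

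Of 25697 probes, 23978 carried 1 symbol; 23962 were found in the RefSeq table of build GRCm38.p6 and 0 symbols changed. limma 3.58.1 in R 4.3.3 applied neqc (negative controls inferred from detection p, offset 16, quantile normalization, log2). The 13374 probes detected under 0.05 on at least 3 arrays were kept, and the brightest probe per gene gave 10200 features. lmFit and eBayes compared 5 ventilated with 3 control arrays, two-sided, Benjamini-Hochberg threshold 0.05. Labels number separate lungs and give strain and an age range, but do not describe the single animals further. The p-values therefore measure the spread between these samples, and the number of arrays limits the precision. The fit was tested on simulated data, where it recovered 22.2% of 2-fold, 80.4% of 4-fold and 96% of 8-fold changes. A gene that did not pass may therefore still have changed. Summed levels add linear normalized intensities less the offset over each gene's brightest probe, undetected probes included. Named by rule are all members, list genes past the threshold or with the smallest p, thymus-defining markers, and the 5 genes most like the CD3 chains. Other list genes, such as Vav1, Nck1, Dgkz, Csk, Runx1, Gata3, Klf2, Tbata and Cd8b1, were named outside this rule. The members and lists were chosen with earlier results of these data known. Figures used Python 3.11.15 and matplotlib 3.10.9.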

Additional observations from a re-analysis of the deposited data

How the results depend on the processing

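Against 204 features called, 0 were called with a common median (116 at an unadjusted p under 0.05), 7 in the deposited values, 2 with the replicate block, 11 in the brighter 4 arrays alone, 120 without control 2 and ventilated 4 together (an alternative chosen after seeing the data), 315 with a brightness block, 569 with a brightness covariate and 838 with array weights. The common median shifted the median of all features from 0.01 to −0.11. Leaving out 1 array gave 68 to 164. Member genes called numbered 0 with the common median, the deposited values, the replicate block (Cd3d 1.53, adjusted p = 0.303) and the brighter arrays alone, and 2 without background correction, with array weights and with the brightness covariate, the second being Satb1. With 1 array left out they numbered 0 to 1. Member probes called were 1, or 0 in those first 4 settings and 2 with array weights and the brightness covariate, and 0 to 1 with 1 array left out. Without control 2 and ventilated 4 the chain differences were 0.71 for Cd3d minus Cd3e, 1.85 for Cd3d minus Cd3g and −1.14 for Cd3g minus Cd3e; none can pass, since 15 splits give no p below 0.0667. On the arrays with all 3 chains detected, also chosen after seeing the data, they were 0.56, 1.63 and −1.07, and 10 splits give no p below 0.1. With 1 array left out they were 0.60 to 0.93, 1.67 to 1.93 and −1.33 to −0.82. In the other alternatives run they kept their direction and passed.

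Deviations of arrays with the same replicate number in both groups correlated at −0.34, −0.36 and 0.36 across genes. These values differ in sign and cannot decide whether equal numbers pair the lungs. Cd247 turned to −0.024 with the brightness block and was −0.11 to 0.65 with 1 array left out, and Cd3g was −0.65 to 0.0068. Krt14 was −0.86 to 0.0076 with 1 array left out. Cd27 turned to −0.35 with the common median, −0.16 in the deposited values, −0.064 with the mean of probes, −0.045 with array weights, −0.22 in the brighter arrays and −0.094 without control 2 and ventilated 4; with 1 array left out its lowest was −0.17 and highest 0.47. Bst2 turned to −0.048, −0.10, −0.093, −0.21 and −0.12 with the common median, deposited values, array weights, brighter arrays and both arrays left out, and was −0.15 to 1.39 with 1 left out. The causes were not tested. Control 2 and ventilated 4, the dimmest array of each group, enter the values above except where a fit left them out.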

Other observations

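Genes of regulatory and recirculating T cells did not pass the test in either direction. Foxp3, the transcription factor that defines regulatory T cells, had a mean level of 4.62 ± 0.087 (SD, n = 3) without and 5.18 ± 0.26 (SD, n = 5) with ventilation, a log2 difference of 0.56 ± 0.22 that did not pass (limma adjusted p = 0.241), although its 5 ventilated values lay above the controls. None of the 5 measured regulatory T cell genes passed, and their median was 0.31. Foxp3 alone of these 5 lay wholly above the controls, against 6.71% of all features. Cd27, a costimulatory receptor of naive and memory T cells, was at 0.25 ± 0.32 (adjusted p = 0.763) among 2 measured homing genes.

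Among B cell genes, Cd79b, a signalling chain of the B cell receptor, had the smallest p, at 0.92 ± 0.40 (adjusted p = 0.288), with overlapping groups and 0.44 without control 2. Prf1, the pore-forming protein of cytotoxic cells, was at 0.48 ± 0.34 (adjusted p = 0.537), or 0.25 without ventilated 4. Bst2, which plasmacytoid dendritic cells and interferon-exposed cells make, was at 0.77 ± 0.56 (adjusted p = 0.551), and 4 genes of that list were measured.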
